A study of Mus musculus with 8 samples.

Results

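The testis-expressed genes Tex9, Tex10, Tex11, Tex13, Tex14, Tex15, Tex16, Tex19 and Tex101 were measured in whole testes at postnatal day 8, from wild type mice and from mice deficient in VRK1. They were found by gene name in the array files, where these 9 genes had 11 of the 41174 probes and were 9 of 27666 gene symbols. VRK1 is a nuclear serine/threonine kinase of dividing cells. The VRK1-deficient mice were homozygous for a gene trap, a β-geo reporter inserted in an intron of Vrk1, in a line crossed repeatedly to C57BL/6, and they are hypomorphs that still make some full-length VRK1. Total RNA of whole testes was labeled with Cy3, and 4 biological replicates of each genotype were each put on an Agilent Whole Genome Mouse array. Every value below is a log2 signal, the deposited processed intensity divided by the 75th percentile intensity of its array, on a log2 scale, so 0 stands for that percentile. It was 642 to 851 intensity units on the wild type arrays and 548 to 745 on the VRK1-deficient arrays. With n = 4 per genotype, changes of moderate size can miss the threshold used below.

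Tex genes share a way of naming and not a protein family. They were named for transcripts found mostly in the testis, and many act in germ cells before or during meiosis. At postnatal day 8 the seminiferous tubules hold spermatogonia, the earliest spermatocytes and Sertoli cells, and later germ cells have not yet formed. In whole-testis RNA, fewer germ cells and less RNA per germ cell cannot be told apart.

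Vrk1 itself was read by 2 probes. The brighter (A_51_P102339, NM_011705, chromosome 12 from 103556489 to 103557469, build mm7) had log2 signals of -0.20, -0.12, 0.59 and 0.35 on wild type replicates 1 to 4 and of -3.97, -3.68, -3.58 and -4.17 on VRK1-deficient replicates 1 to 4. No VRK1-deficient array came near a wild type array. The log2 change, VRK1-deficient minus wild type here and throughout, was -4.00 (SE, its standard error, 0.21, limma adjusted p = 0.000135), and the other probe changed by -3.93. Where these probes lie relative to the trap was not determined.

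Wild type replicate 1 resembled the VRK1-deficient arrays more than its own group. Over the 24364 probes well above background on all 8 arrays, its correlation across probes was 0.988 to 0.991 with the VRK1-deficient arrays and 0.970 to 0.986 with the other wild type arrays. Wild type replicate 3 had a like range with its own group, 0.970 to 0.987, but 0.964 to 0.977 with the VRK1-deficient arrays. These correlations describe the arrays and were not tested. The Vrk1 signal of wild type replicate 1 was that of a wild type array. It is this replicate that is left out below. Calls of Tex genes and counts of gene lists are therefore given with and without this array, and for gene lists this comparison was chosen after seeing the data. The arrays lay on 2 slides, with replicates 1 and 2 of both genotypes on slide 1 and replicates 3 and 4 on slide 2. On both slides, wild type samples took positions 1 and 2 and VRK1-deficient samples positions 3 and 4, so array position and genotype cannot be told apart.

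All 9 Tex genes were detected. Of these, 8 were well above background on all 8 arrays, by the Feature Extraction flag that asks a spot to exceed its local background by a margin set from the noise. The exception was Tex11, a meiotic gene of the X chromosome, which passed this flag on 3 arrays of wild type testes and 2 arrays of VRK1-deficient testes. By the looser flag for a positive and significant signal, Tex11 was detected on all 8 arrays as well. Tex10 had 3 probes, and its dimmest (A_51_P102090) passed the stricter flag on 4 wild type arrays and 0 VRK1-deficient arrays. On the 75th percentile scale, Tex19 and Tex101 had positive signals on every array, Tex10 did so by its brightest probe, and Tex11 and Tex16 had negative signals on every array. Brightness depends on the probe, so these signs do not rank the transcripts.

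The tissue was as labeled by its defining genes. All 4 germ cell genes, all 8 Sertoli cell genes and all 6 Leydig cell genes were well above background on every array. Of 8 genes of pachytene spermatocytes and spermatids, Ldhc, Prm1, Prm2 and Tnp1 passed the stricter flag on every array, and Pgk2, Acrv1 and Odf1 on none, like the meiotic gene Prdm9.

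In VRK1-deficient testes, all 9 Tex genes had lower mean signals than in wild type testes. The change reached the threshold, an adjusted p under 0.05 when limma tested 26948 probes together, for 2 of the 9. These were Tex13 and Tex16, both on the X chromosome, and they fell to 46.8% and 38.3% of the wild type signal. With slide as a block neither was called (limma adjusted p = 0.0526 for Tex13 and 0.0519 for Tex16, with the ranges over all alternatives given below). Over all tested probes 1.99% were called lower, and 3.66% were called in either direction, so 2 of 9 compares with 535 lower calls of 26948. No Tex gene was called higher, and 0 had an unadjusted p under 0.05 in that direction, while 6 of 9 had one in the lower direction, against 14.1% higher and 14.8% lower of all tested probes. The methods' t-test called 0 of 9 after adjustment and gave 5 of 9 an unadjusted p under 0.05. For 2 genes, the same Tex13 and Tex16, the ranges of the genotypes were apart, with the highest VRK1-deficient array under the lowest wild type array, as for 7.30% of tested probes. The median log2 change of the 9 genes was -1.10, and among the 8 well above background throughout the changes ran from -1.39 for Tex16 to -0.29 for Tex10. The median over all tested probes was 0.04, with 45.5% of them below 0.

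Without wild type replicate 1, all 9 Tex genes were called lower, among them Tex11, which was near background. Of all tested probes, 14.7% were called lower (28.4% in either direction). When an array other than this was dropped, 0 of 9 were called by limma, and 5 to 7 of 9 had an unadjusted p under 0.05. Those fits called only 3 to 68 of the 26948 tested probes, so few genes of any kind were called. The share of all probes at an unadjusted p was not counted in them. The calls of Tex13 and Tex16 were thus kept without wild type replicate 1 and lost without any other array, whereas the sign of each change did not turn under any of the 20 alternatives run (19 for Tex11). Calls in the gene lists below were lost in the same way, apart from 1 mast cell gene without wild type replicate 3.

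Tex13 and Tex16 belong to a group of X-linked genes expressed in spermatogonia, and what their proteins do is little known. The Tex13 probe (A_52_P648433, NM_031381, the accession of Tex13b in RefSeq) lies on chromosome X from 135528519 to 135528578 on the minus strand of mm7. Its log2 signal was 0.84, 1.74, 1.34 and 1.81 on wild type replicates 1 to 4, and -0.08, 0.62, 0.60 and 0.21 on VRK1-deficient replicates 1 to 4. Replicate 1 was the lowest array in both genotypes, and the lowest wild type array still lay above the highest VRK1-deficient array. The means were 1.43 ± 0.45 (SD, n = 4) and 0.34 ± 0.34 (SD, n = 4), and the log2 change was -1.10 (SE 0.24, limma adjusted p = 0.0492). Within slide 1 it was -1.02 and within slide 2 it was -1.17, so the size was much the same on both.

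Tex16 (A_51_P352705, NM_031382, chromosome X from 107302496 to 107302555, plus strand of mm7) gave log2 signals of -3.75, -2.75, -2.33 and -2.20 in wild type testes and of -4.28, -3.81, -4.04 and -4.44 in VRK1-deficient testes, in replicate order. Wild type replicate 1 was just above VRK1-deficient replicate 2, and the other wild type arrays were more than 1 log2 unit above every VRK1-deficient array. The log2 change of Tex16 was -1.39 (SE 0.32, limma adjusted p = 0.0497). It was -0.80 within slide 1 and -1.98 within slide 2. With a normexp background correction the change shrank to -0.52 (limma adjusted p = 0.0812). That setting also adds an offset of 50 intensity units to every signal, which by itself shrinks log2 differences of dim probes. Leaving out wild type replicate 1, the change was -1.30 for Tex13 (limma adjusted p = 0.00495) and -1.72 for Tex16 (limma adjusted p = 0.00326). Over all alternatives the adjusted p ran from 0.00495 to 0.501 for Tex13 and from 0.00326 to 0.515 for Tex16.

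Tex11 is the other X-linked member, and its protein binds SYCP2 and acts in synapsis and crossover formation. Its probe (A_52_P384690, NM_031384) is placed on chromosome X from 96211733 to 96231147, a span of 19415 bases for a probe of 60, so it crosses at least 1 exon junction. Log2 signals were -5.85, -4.71, -3.85 and -3.41 in wild type testes and -7.23, -4.93, -4.87 and -6.35 in VRK1-deficient testes. The groups overlapped, since wild type replicate 1 lay below VRK1-deficient replicates 2 and 3. The log2 change of Tex11 was -1.39 (SE 0.64, limma adjusted p = 0.187), with a 95% confidence interval from -2.84 to 0.06, and the SD within each genotype was over 1. It was -0.12 with the normexp background correction, so near background the size of the change depends on how background is removed. With wild type replicate 1 dropped, Tex11 was called (limma adjusted p = 0.0475, with 0.0475 to 0.708 over the alternatives).

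The probes of the 3 X-linked members, of which Tex13 and Tex16 were called, are shown as they stand in the array files, 5′ to 3′ and in lower case, because the signals of Tex11, Tex13 and Tex16 rest on 1 probe each.
Tex13: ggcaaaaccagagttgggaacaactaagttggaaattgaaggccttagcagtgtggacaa
Tex16: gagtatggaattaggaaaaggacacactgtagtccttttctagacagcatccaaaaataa
Tex11: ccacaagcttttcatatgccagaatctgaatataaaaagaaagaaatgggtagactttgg
They hold 45.0%, 36.7% and 35.0% G and C, and 0 CG pairs each.

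The X chromosome as a whole gave shares that changed with wild type replicate 1. Of 952 tested probes on it, 15 (1.58%) were called lower and 35 (3.68%) higher, against 518 lower and 413 higher of 25865 on other chromosomes, and their median log2 change was 0.10. Without that array, 17.9% of X-linked probes were called lower and 14.6% of probes on other chromosomes. A list of other X-linked spermatogonial genes, of which 5 of 7 were measured and tested, held 5 values below 0 with a median of -0.92 and 0 calls by limma (4 at an unadjusted p under 0.05). Taf7l, a testis form of a TFIID subunit, had a log2 change of -1.05 (limma adjusted p = 0.0657), and Ott one of -1.25 (limma adjusted p = 0.0888). Without wild type replicate 1, 4 of these 5 genes were called lower.

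Tex14 and Tex15 came next by adjusted p. TEX14 is a protein of the intercellular bridges that join daughter germ cells, where it keeps CEP55 from completing the cut between them. The Tex14 probe (A_51_P502535, NM_031386, chromosome 11 from 87625540 to 87625599) had log2 signals of 0.53, 1.49, 1.78 and 1.76 in wild type testes. In VRK1-deficient testes they were -0.03, 0.57, 0.59 and 0.20. Wild type replicate 1 lay between VRK1-deficient arrays, while the other wild type arrays lay well above all of them. Tex14 had a log2 change of -1.06 (SE 0.28, limma adjusted p = 0.0621), which leaves 48.1% of the wild type signal. Without wild type replicate 1 it was -1.34 (limma adjusted p = 0.0036, with 0.0036 to 0.527 over the alternatives).

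Genes of the other proteins of the bridge had values on both sides of 0. Of 7 genes listed as partners of TEX14, 3 had values below 0 and 4 above, with a median of 0.06 and 0 called by limma (1 lower and 1 higher at an unadjusted p under 0.05). With wild type replicate 1 dropped, 1 was called lower and 1 higher. Kif23 and Prc1, which build the midbody in every dividing cell, had log2 changes of 0.32 and 0.24 (limma adjusted p = 0.350 and 0.265). Named after their values were seen, Rbm44, a germ cell RNA-binding protein that interacts with TEX14, had a log2 change of -1.02 (limma adjusted p = 0.0748), and Racgap1, a partner of KIF23, one of 0.53 (limma adjusted p = 0.0775) without overlap of the genotypes.

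TEX15 acts in the loading of recombinases onto meiotic chromosomes and in piRNA-directed silencing of transposons in fetal germ cells. Its probe (A_51_P331059, NM_031374, chromosome 8 from 32350123 to 32350182) gave log2 signals of 0.002, 1.14, 1.46 and 1.74 on the wild type arrays. On the VRK1-deficient arrays the signals were -0.41, 0.25, 0.22 and -0.34. Again only wild type replicate 1 lay within the VRK1-deficient range. Tex15 had a log2 change of -1.16 (SE 0.35, limma adjusted p = 0.0796), and -1.52 without that array (limma adjusted p = 0.00395, with 0.00395 to 0.593 over the alternatives). It was -0.65 within slide 1 and -1.66 within slide 2.

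All 12 tested genes of the TEX15 pathway had values below 0, with a median of -0.79, and 3 fell at the threshold. These were Tdrd9, an RNA helicase of the piRNA pathway (-1.47, limma adjusted p = 0.0471), Piwil4, the nuclear Piwi protein of fetal germ cells (-1.26, limma adjusted p = 0.0492), and Tdrd1, a Tudor scaffold of germ granules (-1.11, limma adjusted p = 0.0498). Among the TEX11 partners, 11 of 12 tested genes had values below 0 with a median of -1.10. Sycp2, the axial element protein that TEX11 binds, changed by -1.67 (limma adjusted p = 0.0435), and Rnf212, a crossover factor, by -1.14 (limma adjusted p = 0.0454). The genotypes did not overlap in any of these 5 genes, which were picked by their calls. Over the whole lists 4 of 12 TEX15 pathway genes and 2 of 12 TEX11 partners were lower without overlap, against 7.30% of tested probes. Without wild type replicate 1, all 12 TEX15 pathway genes and 9 of 12 TEX11 partners were called lower. Without any other array, 0 of these genes were called. With slide as a block, and also with quantile normalization, 1 TEX15 pathway gene and 2 TEX11 partners were called.

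Tex101 encodes a GPI-anchored protein of the germ cell surface that is needed later for sperm to pass into the oviduct. The probe (A_52_P499158, NM_019981, chromosome 7 from 21456064 to 21456123) had log2 signals of 3.09, 4.45, 4.80 and 5.24 in wild type testes and of 2.69, 3.63, 3.59 and 3.00 in VRK1-deficient testes. Among the 8 members well above background throughout, Tex101 had the largest SD over the 8 arrays, 0.92, with wild type replicates 1 and 4 farthest apart within their group. The change of Tex101 was -1.17 (SE 0.43, limma adjusted p = 0.118), with -0.61 on slide 1 and -1.73 on slide 2. It came to -1.61 when wild type replicate 1 was dropped (limma adjusted p = 0.00614, with 0.00614 to 0.665 over the alternatives).

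The proteins that work with TEX101 on sperm are mostly made later. Of 8 listed genes, 6 passed the filter, 3 had values below 0 and 3 above, the median was -0.03, and 0 were called by limma (2 lower at an unadjusted p under 0.05), against 2 lower and 1 higher without wild type replicate 1. Clgn, a chaperone of the endoplasmic reticulum in germ cells, had a log2 change of -1.03 (limma adjusted p = 0.0864), and Ace one of -0.10 (limma adjusted p = 0.731). Ly6k, which encodes the closest partner of TEX101, was chosen after its value was seen and had the lowest value of the list, -1.95 (limma adjusted p = 0.0938). Adam2 was not well above background on any array.

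TEX19.1, the product of Tex19 on the array, limits transposons in germ cells and binds the ubiquitin ligase UBR2. The Tex19 probe (A_51_P245533, NM_028602, chromosome 11 from 121257216 to 121257275) read 4.74, 5.26, 5.55 and 5.10 in wild type testes, and 4.35, 4.88, 4.74 and 4.00 in VRK1-deficient testes. The ranges met narrowly, as VRK1-deficient replicate 2 lay above wild type replicate 1 and replicate 3 lay about level with it. Tex19 had a log2 change of -0.67 (SE 0.23, limma adjusted p = 0.103), or 62.8% of the wild type signal, and -0.81 without wild type replicate 1 (limma adjusted p = 0.0286, with 0.0286 to 0.600 over the alternatives). Its partners all had values below 0, and 0 of 3 were called by limma, with all 3 at an unadjusted p under 0.05 and 2 called without wild type replicate 1. Ubr2 had a log2 change of -0.32 (limma adjusted p = 0.0936) without overlap of the arrays, and Tex19.2, the neighboring paralog, one of -0.43 (limma adjusted p = 0.114).

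The smallest changes, by the brightest probe of each gene, were those of Tex9 and Tex10. Both genes are also active outside germ cells, and whether that bears on the size of the change was not tested. Tex9 (A_52_P112864, NM_009359, chromosome 9 from 72506463 to 72506522) ran from -0.65 to 0.96 in wild type testes and from -0.75 to 0.13 in VRK1-deficient testes, and the ranges overlapped through wild type replicate 1, while the other wild type arrays lay above every VRK1-deficient array. The change was -0.58 (SE 0.33, limma adjusted p = 0.276), and -0.91 without wild type replicate 1 (limma adjusted p = 0.0207, with 0.0207 to 0.791 over the alternatives). TEX10 works with PELP1, WDR18, SENP3 and LAS1L in the assembly of the large ribosomal subunit. Its brightest probe (A_51_P462746, BC006867, chromosome 4 from 48444776 to 48444835) read 2.37, 2.91, 3.13 and 3.00 in wild type and 2.41, 2.75, 2.67 and 2.42 in VRK1-deficient testes, and wild type replicate 1 was the lowest of all 8 arrays.

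The 3 Tex10 probes differed in the size of the change. By the brightest it was -0.29 (SE 0.18, limma adjusted p = 0.308), and -0.45 without wild type replicate 1 (limma adjusted p = 0.0344, with 0.0344 to 0.932 over the alternatives). The next (A_52_P221696, chromosome 4 from 48482535 to 48482594) gave -0.55 (SE 0.14, limma adjusted p = 0.0607), and on it every VRK1-deficient array lay below every wild type array. The dimmest (A_51_P102090, chromosome 4 from 48483290 to 48483349), not well above background in VRK1-deficient testes, was at least 1.17-fold lower there, and no test is drawn from it. That bound sets the wild type mean against, on each VRK1-deficient array, the larger of the probe's own signal and the lowest signal well above background. With the mean of the 3 probes as its value, Tex10 changed by -0.435 and was called (limma adjusted p = 0.0431), but that mean includes the dimmest probe. All 6 tested ribosome assembly partners had values below 0, with a median of -0.18, and 1 was called, or 2 without wild type replicate 1. The called gene, Mdn1, the large ATPase that removes assembly factors, fell by 1.03 on the log2 scale (limma adjusted p = 0.0315), and its change was as large within slide 1 (-1.02) as within slide 2 (-1.03). Its call was lost when any array other than wild type replicate 1 was dropped.

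**Figure D1:**
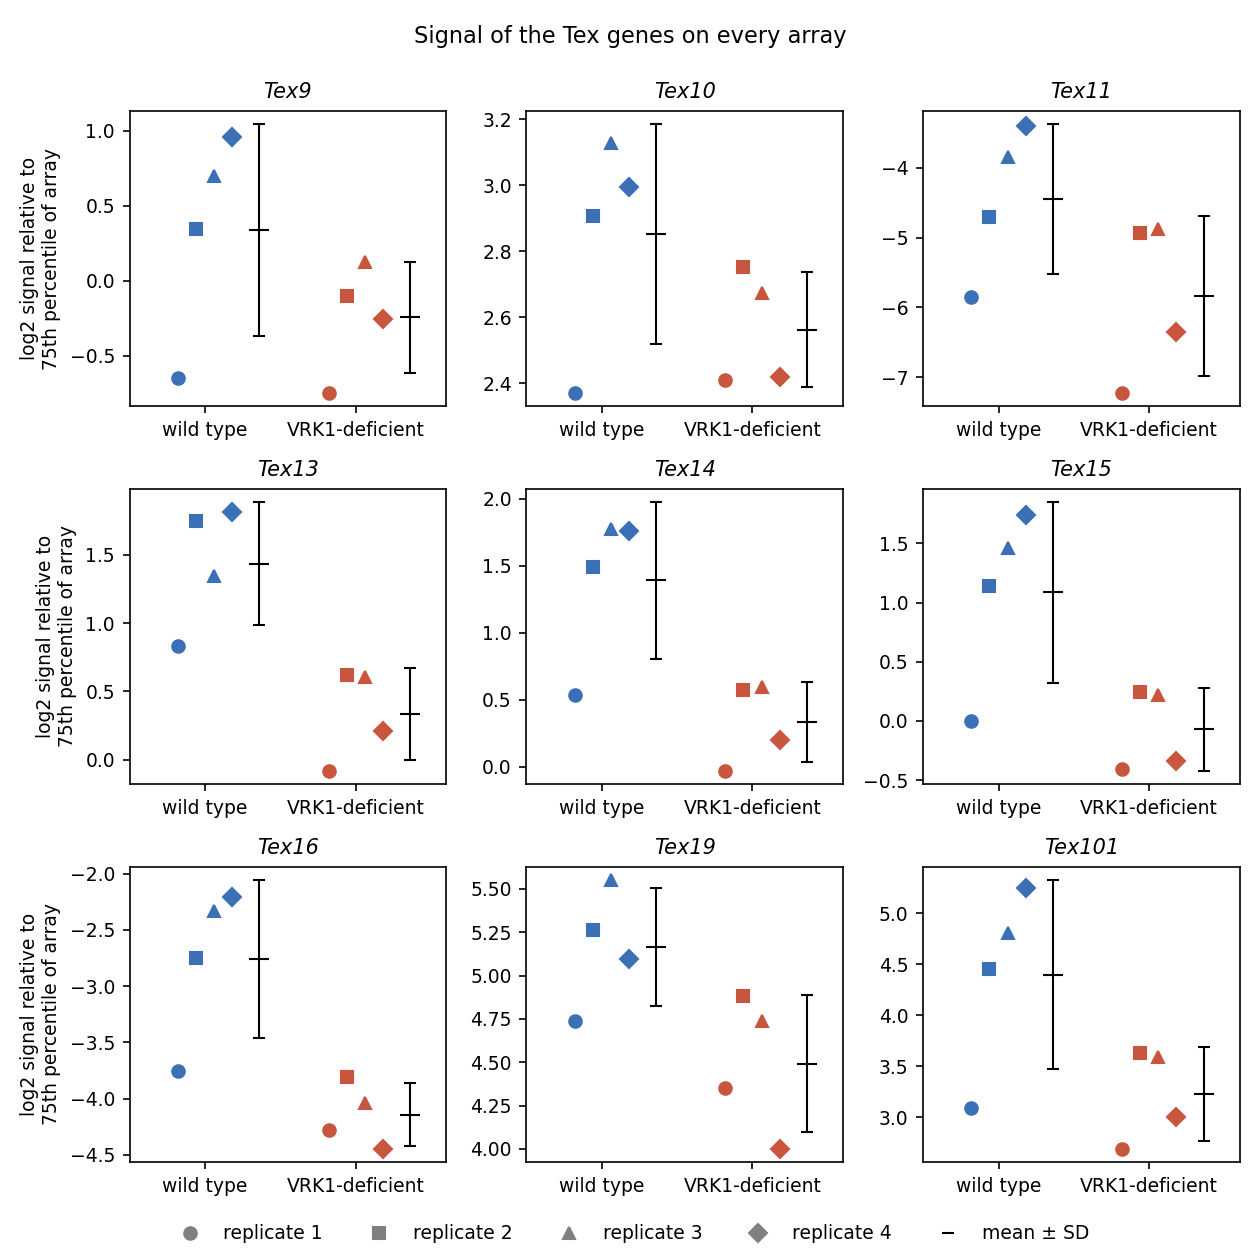
Log2 signal, scaled to the array's 75th percentile (vertical axes, each with its own range) for the 9 Tex genes on the 4 wild type (blue) and 4 VRK1-deficient (red) arrays, with a symbol per replicate and black bars for the mean ± SD (n = 4). The circle of wild type replicate 1 is the lowest wild type point in all 9 panels, and the genotypes are free of overlap in 2, Tex13 and Tex16.

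The arrays kept much the same order from gene to gene. Wild type replicate 1 was the lowest wild type array for 9 of 9 genes, and replicate 4 was the highest for 6 and replicate 3 for 3. For 7 of the 9 genes wild type replicate 1 lay below the highest VRK1-deficient array, and no other wild type array did so for any gene. Among VRK1-deficient arrays, replicate 1 was the lowest for 7 genes and replicate 4 for 2, while replicate 2 was the highest for 6 and replicate 3 for 3.

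Slides gave the same direction and different sizes. Within slide 1, which holds wild type replicate 1, the log2 changes ran from -1.02 for Tex13 to -0.06 for Tex10 and none was called by limma (0 at an unadjusted p under 0.05). Within slide 2 they ran from -1.98 for Tex16 to -0.52 for Tex10, leaving aside Tex11, which was near background, and 4 of 9 were called, with all 9 at an unadjusted p under 0.05. Over all 26948 probes, 749 were called lower and 312 higher within slide 2, against 3 and 0 within slide 1. The called genes were Tex14, Tex15, Tex16 and Tex101. The difference between slides was then tested as an interaction of slide and genotype, a test chosen after seeing the data. It was -0.15 for Tex13 and -1.18 for Tex16, and the limma adjusted p was 0.728 or more for all 9 genes. Tex16 had an unadjusted p of 0.0422, 1475 of 26948 probes had one under 0.05, and 0 probes were called.

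**Figure D2:**
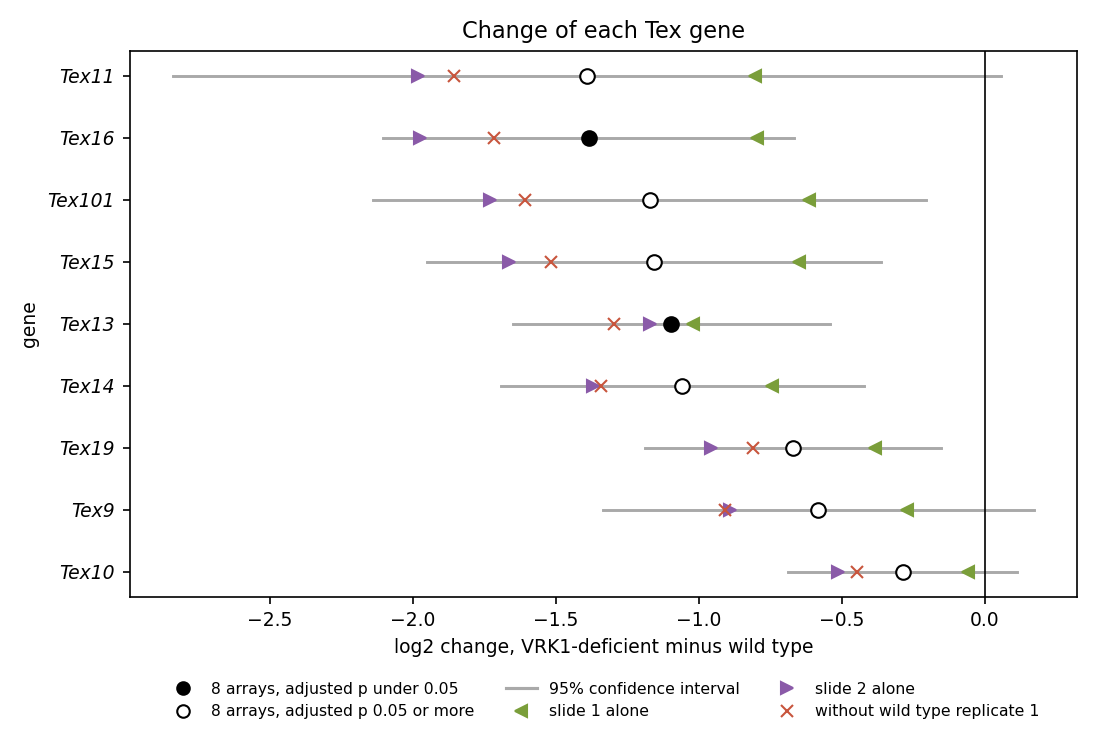
Log2 change, VRK1-deficient minus wild type (horizontal axis), of each Tex gene (vertical axis), with black-edged circles for 8 arrays (filled where the limma adjusted p was under 0.05), grey lines for the 95% confidence interval, triangles for slide 1 and slide 2 alone and crosses for the fit without wild type replicate 1. Every symbol lies below 0, slide 2 lies further from 0 than slide 1 for each gene, and Tex13 shows the smallest gap between slides.

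Of the 8 Tex genes well above background throughout, which leaves out Tex11, several had profiles nearly alike over the 8 arrays, each centered on its own mean. The root mean square difference was 0.13 between Tex15 and Tex101, 0.15 between Tex14 and Tex15 and 0.16 between Tex15 and Tex16, and it reached 0.61 between Tex10 and Tex101. Among all tested genes, the 5 whose centered profile was most like that of Tex101 were Gm364 (0.10), Atf7ip2 (0.11), Tex15 (0.13), Xlr4b (0.14) and Eaf2 (0.14). Their log2 changes lay between -1.30 for Eaf2 and -1.14 for Xlr4b, and none was called (limma adjusted p from 0.0796 for Tex15 to 0.137 for Xlr4b). The profiles include the difference between genotypes and the low wild type replicate 1, so they are a description and carry no p.

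Other genes named Tex had values on both sides of 0. Of 28 with a probe, 14 passed the filter and 10 were not well above background on any array, Tex13a, Tex29 and Tex55 among them. Values were below 0 for 9 and above 0 for 5, the median was -0.22, and limma called 0, with 5 lower and 1 higher at an unadjusted p under 0.05. The 5 lower include Tex45, which was well above background on 4 wild type arrays and 1 VRK1-deficient array. It passed the filter through its wild type arrays, and no conclusion is drawn from it. Tex264, a receptor for autophagy of the endoplasmic reticulum in many tissues, had a log2 change of -0.19 (limma adjusted p = 0.358). Tex12, a synaptonemal complex protein, and Tex18 were named after their values were seen and had log2 changes of -1.30 and -1.01 (limma adjusted p = 0.0765 and 0.0739). Without wild type replicate 1, 5 of the 14 were called lower and 2 higher.

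Pan germ cell markers, like the Tex genes, had lower mean signals in VRK1-deficient testes, and most of these changes did not reach the threshold. All 4 pan germ cell genes (Ddx4, Dazl, Mael and Tdrd1) had values below 0, with a median of -0.90. Of them Tdrd1 was called, and Tdrd1 and Mael are also in the TEX15 pathway list. All 4 were called lower without wild type replicate 1, with a median of -1.22, and 0 were called with slide as a block or with quantile normalization. Their summed linear signal, in multiples of the 75th percentile, was 18.6, 33.5, 47.2 and 36.6 in wild type and 13.1, 20.3, 19.4 and 15.1 in VRK1-deficient testes, and the brightest probe was that of Tdrd1. Wild type replicate 1 was the lowest wild type array, as for each Tex gene, and here it lay within the VRK1-deficient range. The summed signal of the 9 Tex genes was 45.3, 77.6, 94.1 and 92.6 in wild type and 35.5, 53.8, 50.4 and 33.4 in VRK1-deficient testes. What part of the change of the Tex genes goes with the germ cell signal was not tested.

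Markers of successive germ cell stages were divided. Among undifferentiated spermatogonia genes, 4 of 9 tested had values below 0 and 5 above, with a median of 0.10, and Lin28a (-1.12, limma adjusted p = 0.0498) and Sall4 (-0.99, limma adjusted p = 0.0491) were called lower. At an unadjusted p under 0.05 there were 3 lower and 3 higher, and without wild type replicate 1 there were 3 called lower and 3 called higher. Both calls were lost with slide as a block and with quantile normalization, which left 0 of the 9 called. The higher by unadjusted p were Gfra1 (0.54), Nanos2 (0.50) and Etv5 (0.66), and the lower included Neurog3 (-0.93). In these 4 genes, named after their values were seen, the genotypes did not overlap. Ret was not well above background on any array. Of 5 tested genes of differentiating spermatogonia, 4 had values below 0, the median was -0.85, and Dmrtb1, a regulator of the step from mitosis to meiosis, fell by 1.81 on the log2 scale (limma adjusted p = 0.0492). Of these 5, 4 were called lower and 1 higher without wild type replicate 1, and 0 were called with slide as a block or with quantile normalization. All 6 tested genes of meiotic prophase had values below 0, with a median of -0.99 and 0 calls by limma (5 at an unadjusted p under 0.05). Of the 6, 5 were called lower without wild type replicate 1, with a median of -1.33. Sycp1 had a log2 change of -1.40 (limma adjusted p = 0.0589) and Meiob one of -0.83 (limma adjusted p = 0.122). Their summed signals in wild type testes, in replicate order, were 3.11, 5.05, 4.69 and 3.99 for the undifferentiated, 58.2, 74.8, 94.4 and 87.1 for the differentiating and 1.42, 2.68, 3.85 and 4.09 for the meiotic genes. In VRK1-deficient testes they were 3.09, 3.63, 3.28 and 3.07, then 58.3, 63.7, 66.9 and 53.9, and then 1.08, 1.53, 1.41 and 1.06. The brightest probes of these lists in wild type testes were those of Sall4, Stra8 and Sycp1. The differentiating sum also holds Ccnd2, named after its value was seen, which had a log2 change of 0.65 (limma adjusted p = 0.0657) without overlap and the brightest probe of that list in VRK1-deficient testes.

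Genes of pachytene spermatocytes and spermatids gave few values, with 4 of 8 tested, a median of -0.15 and 0 calls by limma (0 at an unadjusted p under 0.05), against 2 lower without wild type replicate 1. Tnp1 had a log2 change of -0.40 (limma adjusted p = 0.320) and Prm1 one of 0.11 (limma adjusted p = 0.658). Their summed signal was under 1 on every array.

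Most lists of somatic markers had medians above 0 or close to it. For Sertoli cells 7 of 8 genes had values above 0, with a median of 0.36 and 0 calls by limma (4 higher and 1 lower at an unadjusted p under 0.05). When wild type replicate 1 was left out, 6 were called higher and 1 lower, with a median of 0.51. Clu, whose probe was the brightest of the list in wild type testes, had a log2 change of 0.25 (limma adjusted p = 0.245), and Dhh one of 0.45 (limma adjusted p = 0.106). The largest values, named after they were seen, were those of Amh (1.19, limma adjusted p = 0.115) and Fshr (1.09, limma adjusted p = 0.0597), without overlap of the genotypes for Fshr, while the homeobox gene Rhox5 alone was below 0, at -1.08 (limma adjusted p = 0.111). The summed Sertoli signal was 293, 214, 220.0 and 196 in wild type and 311, 264, 266 and 302 in VRK1-deficient testes, highest in the wild type group on replicate 1. Leydig cell genes had 4 values above 0 and 2 below, a median of 0.28 and 0 calls by limma (2 higher at an unadjusted p under 0.05, and 2 called higher without wild type replicate 1). Among them were Hsd3b1 at 0.37 (limma adjusted p = 0.115) and Insl3 at 0.35 (limma adjusted p = 0.318). Macrophage genes had a median of 0.09 and 0 calls with or without that array (0 at an unadjusted p under 0.05), with Csf1r at 0.09 and Adgre1 at 0.05. Endothelial genes had a median of 0.35 and 0 calls by limma (1 higher at an unadjusted p under 0.05, and 1 called higher without that array), with Cdh5 at 0.35 and Kdr at 0.35 (limma adjusted p = 0.189 and 0.114). Of 4 peritubular genes Cnn1 alone was called, at -0.99 (limma adjusted p = 0.0445), and the median was -0.07, with 1 call without that array too.

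Of the mast cell genes, 3 of 3 tested were called higher, with or without wild type replicate 1, and 0 or 1 when any other array was dropped. These were Cpa3 (1.90, limma adjusted p = 0.0294), Tpsb2 (1.59, limma adjusted p = 0.0410) and Mcpt4 (1.51, limma adjusted p = 0.0399), while Fcer1a was well above background on 1 wild type and 1 VRK1-deficient array. Over all 26948 tested probes 451 were called higher, and 3693 without wild type replicate 1. Signals were near background in wild type testes, where Cpa3 was well above it on 3 arrays. Among probes well above background on all 8 arrays, 1 mast cell gene was called, and no conclusion is drawn from the others. The summed signal of all 4 mast cell genes, Fcer1a included, was small, from 0.0823 to 0.153 in wild type and from 0.269 to 0.402 in VRK1-deficient testes. What part of the change of the Tex genes goes with any of these somatic markers was not tested.

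**Figure D3:**
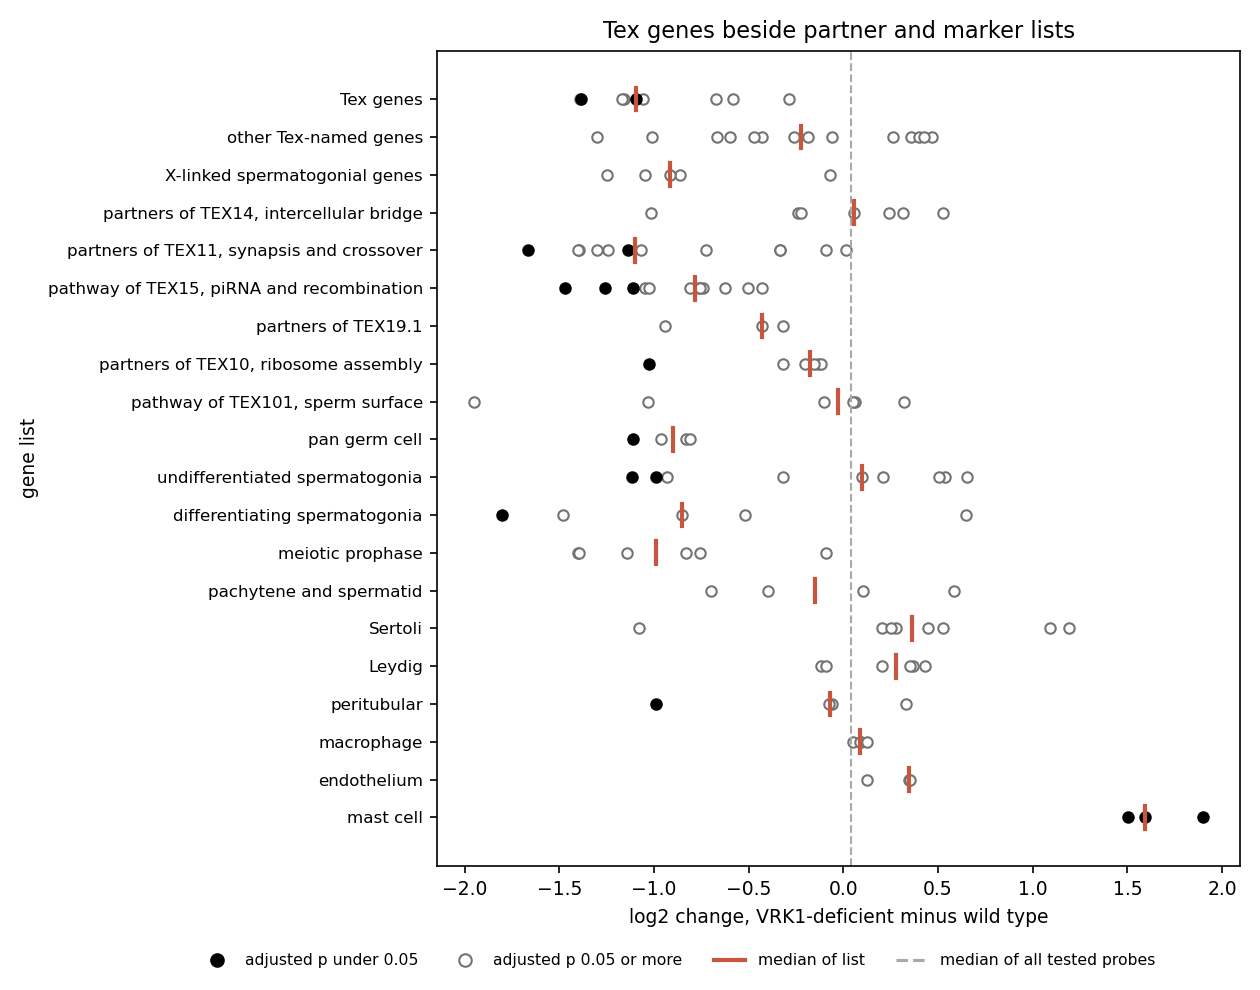
Log2 change, VRK1-deficient minus wild type (horizontal axis), of each tested gene in each list (vertical axis), with filled circles for a limma adjusted p under 0.05, open circles for the rest, red bars for the median of a list and a dashed line for the median over all tested probes (0.04). The 9 Tex genes have a median of -1.10, near those of the TEX11 partners (-1.10) and meiotic prophase (-0.99), and the mast cell genes lie furthest to the right (1.59). The lists are not independent, as Sycp1 and Sycp3 are in both the TEX11 partners and meiotic prophase. Dmc1 is in both the TEX15 pathway and meiotic prophase, and Tex12 and Tex19.2 are in partner lists and among the other Tex-named genes.

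Promoter sequences of the Tex genes were read from the RefSeq table of build GRCm38.p6, as 300 bases from 250 before to 50 after the transcript start, because several members had like profiles. Of the 9 genes, 7 matched, and Tex11 and Tex15 did not. The CG pair, the site of DNA methylation, occurred 21 times in the window of Tex10, 20 in Tex14, 19 in Tex101, 17 in Tex9, 16 in Tex19.1 and 13 in Tex13b, against a median of 7 over 32851 promoters. Counts at least as high were common, from 24.8% of promoters for that of Tex10 to 37.9% for that of Tex13b. Tex16 had 0, as did 5.43% of promoters. The 2 genes that fell at the threshold thus had unlike windows, and both are shown with CG in capitals. The Tex13b window is chrX:140813384-140813683 on the minus strand and that of Tex16 is chrX:112093270-112093569 on the plus strand.
Tex13b: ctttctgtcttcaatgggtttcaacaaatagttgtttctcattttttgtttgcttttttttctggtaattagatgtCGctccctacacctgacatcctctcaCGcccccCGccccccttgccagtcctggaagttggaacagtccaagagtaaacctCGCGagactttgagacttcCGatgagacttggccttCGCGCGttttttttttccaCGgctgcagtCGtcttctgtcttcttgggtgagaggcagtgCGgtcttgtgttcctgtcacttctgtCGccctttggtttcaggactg
Tex16: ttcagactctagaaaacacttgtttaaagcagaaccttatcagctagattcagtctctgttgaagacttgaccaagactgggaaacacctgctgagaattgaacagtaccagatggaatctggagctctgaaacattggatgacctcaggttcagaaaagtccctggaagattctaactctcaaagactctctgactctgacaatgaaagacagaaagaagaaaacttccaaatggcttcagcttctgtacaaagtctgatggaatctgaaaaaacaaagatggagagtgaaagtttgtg
The letters GCGGGAA, which E2F factors can bind, were found on either strand in 2 of the 7 windows, those of Tex9 and Tex14, and in 4.60% of all promoters. The E-box CACGTG was found in 1 of 7, that of Tex10, and in 7.15% of all promoters. These matches are descriptions of the letters, and binding was not measured.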

How the data were processed

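Total testis RNA of 4 wild type and 4 VRK1-deficient mice at postnatal day 8 was amplified, labeled with Cy3 and hybridized to 1-color arrays. Scans were quantified by the authors in Agilent Feature Extraction 9.5.3.1, which subtracts background and corrects spatial trends, and deposited linear intensity values that are not scaled between arrays. Background flags were used as deposited. Here, spots marked as outliers were left out (58 to 134 per array), and each intensity was divided by the 75th percentile of its array and converted to log2. The 26948 probes that passed the well-above-background flag on 4 or more of 8 arrays were fitted in R 4.3.3 with limma 3.58.1, with Benjamini-Hochberg adjustment across the whole set. The methods' t-test was run on the same values. A gene was represented by its brightest probe. RefSeq tables named 23082 probes by accession, 6582 by symbol and 3073 by synonym, and 8437 kept the name in the file. Named genes were every Tex probe, of each list the called genes (up to 4, largest change) or else the 2 brightest, and the 5 profiles nearest to Tex101, and genes named outside this rule were picked after their values were seen. Members and lists were chosen with earlier results of these data known. The fit was tested on simulated data. Figures were drawn with matplotlib 3.10.9. Probe positions are those of build mm7 in the files.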

Additional observations from a re-analysis of the deposited data

Results flagged for a closer look

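In groups of 4 arrays, 6 of 102 gene and genotype groups examined held an array far from the others by Dixon's test, and chance flags about 1 group in 20. On wild type replicate 1, the log2 signal of Rnf212 was -0.55, while the rest of the group ranged from 0.21 to 0.36, that of Tdrd9 was 0.53 against 1.61 to 1.73, that of Clgn was -0.86 against 0.32 to 0.51, and that of Lin28a was -1.25 against -0.25 to -0.17. Without this array the log2 changes were -1.35 for Rnf212, -1.75 for Tdrd9, -1.35 for Clgn and -1.38 for Lin28a. Tex264 was high on wild type replicate 3, at 3.70 against 3.29 to 3.33. Tex19.2 was high on VRK1-deficient replicate 3, at 3.24 against 2.96 to 2.98. None of the 9 Tex genes had such an array in either genotype.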

How the results depend on the processing

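All alternative fits of the 9 Tex genes gave a value below 0. Among them, 136 fell on the same side of the threshold as the value reported, 17 newly passed it and 26 no longer did. The 2 Tex genes called lower became 0 with quantile normalization, with no filter on dim probes, with slide as a block, within slide 1 and by the methods' t-test, 4 within slide 2 and 0 to 9 with 1 array left out. All 9, among them Tex11 near background, were called without wild type replicate 1. Replicate numbers were not treated as pairs, as the deviations of same-numbered arrays correlated at 0.53, 0.12, 0.21 and -0.19. With the replicate block, 4 Tex genes, 2 other Tex-named genes, 21 partner genes and 2275 probes were called. The 0 calls among other Tex-named genes became 1 with normexp, 2 without scaling, 2 within slide 2 and 0 to 7 with 1 array left out. Partner genes called went from 6 to 15 with normexp, 11 without scaling, 0 with no filter, 0 within slide 1, 16 within slide 2, 1 by the methods' t-test, 12 with an intensity trend and robust variances, and 0 to 34 with 1 array left out. The 986 probes called became 17 with no filter, 641 with slide as a block, 3 within slide 1, 162 by the methods' t-test, 1915 with trend and robust variances and 3 to 7655 with 1 array left out. Lower and higher calls were 535 and 451, and 852 and 64 without scaling, which moved the median of all probes from 0.04 to -0.14. Within slide 1 Vrk1 changed by -3.67 (limma adjusted p = 0.0636). Slide fits rest on fewer arrays, and unfiltered fits on more probes near background. The cause of the other shifts was not tested.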
